A study of Mus musculus with 4 samples.

Results

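Integrins are the receptors through which cells hold on to the extracellular matrix, and 9 of their subunit genes form the subject here: the alpha subunits Itga3, Itga4, Itga5, Itga6, Itga7 and Itgav and the beta subunits Itgb1, Itgb3 and Itgb5. Members were chosen by gene symbol, by a rule that uses no measured value, with earlier results of these data known. Of the 9 symbols, 8 were listed in the authors' table, among 16709 symbols in all, and Itga4 was not analysed here. All 8 passed the filter on low values described below and are among the 10331 genes compared.

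The cells were 3T3-L1, an established clonal mouse preadipocyte line, grown in serum-containing medium. One group received 25 µM Nutlin-3a for 24 h and the other an equal amount of the solvent DMSO, with 2 biological replicates each, so 4 libraries in all. Nutlin-3a blocks the pocket of MDM2 that holds p53 and thereby stabilises p53. The comparison asks how transcript levels differ once p53 has been activated in this way. RNA sequencing gave 1 FPKM value (fragments per kilobase of transcript, scaled to library size) per transcript and group, with none per library. No value below therefore carries a replicate error, no p-value exists, and "higher" and "lower" describe the ratio of the authors' group values. As a check of the treatment, Cdkn1a, an established p53 target, stood at 386 FPKM with Nutlin-3a against 35.2 FPKM with DMSO, while the p53 gene Trp53 had 63.1 and 54.5 FPKM. The listed values of Mdm2, which p53 also induces, go against that role: 0 with Nutlin-3a against 773 FPKM with DMSO. The cause of these Mdm2 values was not tested, and no ratio is drawn from them.

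An integrin is a dimer of an alpha and a beta chain that both span the membrane. The alpha chain largely sets which ligand is bound, whereas the short tail of the beta chain recruits talin, kindlin and further adaptors that tie the receptor to actin and to kinases such as FAK. Beta 1 pairs with many alpha chains, among them alpha 5 for fibronectin and alpha 3, alpha 6 and alpha 7 for laminins. Alpha v pairs with beta 1, beta 3 or beta 5 and binds vitronectin, fibronectin and other ligands through the tripeptide RGD. In preadipocytes, integrins and the matrix around them are known to be remodelled as cells become adipocytes.

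The upstream windows of the 4 most abundant subunits are shown first. Itgb1 and Itgav lay higher in Nutlin-3a and Itga5 and Itgb5 lower, all within the 2-fold limit given below. Each window holds the 250 bases before an annotated start site, 5′ to 3′ on the strand of the gene, from RefSeq on GRCm38.p6. GC boxes (GGGCGG, or CCGCCC on the other strand) are in capitals. The windows lie at chr8:128685404-128685653 on the plus strand for Itgb1, chr2:83724147-83724396 on the plus strand for Itgav, chr15:103366792-103367041 on the minus strand for Itga5 and chr16:33829415-33829664 on the plus strand for Itgb5.
Itgb1: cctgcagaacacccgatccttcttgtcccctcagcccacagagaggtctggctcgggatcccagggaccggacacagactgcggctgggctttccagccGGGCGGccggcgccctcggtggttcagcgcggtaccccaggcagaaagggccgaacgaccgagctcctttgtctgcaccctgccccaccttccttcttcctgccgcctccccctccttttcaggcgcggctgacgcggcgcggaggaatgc
Itgav: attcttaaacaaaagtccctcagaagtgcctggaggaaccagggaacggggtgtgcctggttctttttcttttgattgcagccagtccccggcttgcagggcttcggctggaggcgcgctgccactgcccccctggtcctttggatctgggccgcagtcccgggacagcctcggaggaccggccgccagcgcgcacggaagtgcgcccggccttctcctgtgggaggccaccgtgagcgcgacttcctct
Itga5: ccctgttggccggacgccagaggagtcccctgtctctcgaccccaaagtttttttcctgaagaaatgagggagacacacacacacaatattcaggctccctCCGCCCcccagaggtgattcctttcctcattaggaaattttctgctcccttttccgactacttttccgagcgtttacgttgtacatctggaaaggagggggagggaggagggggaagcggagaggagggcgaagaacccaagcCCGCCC
Itgb5: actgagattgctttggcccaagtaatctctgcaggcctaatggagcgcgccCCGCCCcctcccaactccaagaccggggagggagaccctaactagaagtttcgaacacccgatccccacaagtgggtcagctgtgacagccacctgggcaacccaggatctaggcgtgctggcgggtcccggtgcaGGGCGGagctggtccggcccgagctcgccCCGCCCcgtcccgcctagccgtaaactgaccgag
The Itgb1 window held 1 GC box, the Itgav window 0, the Itga5 window 2 and the Itgb5 window 3. Whether these counts go with the direction of the ratios was not tested. The Itgav window ends just before the listed model at 83724397 but lies inside the RefSeq gene, which begins at 83722303. Among all 32851 RefSeq windows of this length, 32.7% held at least 1 GC box. None of these 4 windows held the consensus of a single p53 binding unit, which 7.13% of all windows held, nor a TATA box (TATAAA, or TTTATA on the other strand), which 12.4% held. That consensus reads the same in its degenerate letters on either strand, so 1 search covers both. Their GC content was 68.0% for Itgb1, 64.4% for Itgav, 55.6% for Itga5 and 65.2% for Itgb5, against a median of 52.4% over all windows. In all, 6 of the 9 symbols had a window in the reference table. Those not shown are Itga3, whose windows held 1 and 3 GC boxes, and Itga4, whose window held 1. Itga6 had no window, nor had Itga7 and Itgb3, the subunits called below, so no motif was searched for them. A matching motif is only a match of letters, and p53 sites elsewhere in these genes were not searched.

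Integrin levels as a set differed little between the groups, while single subunits moved in opposite directions. The 8 subunits summed to 133 FPKM with Nutlin-3a against 129.6 FPKM with DMSO, and 4 lay higher and 4 lower. Ratios below are log2 of (FPKM + 1) in Nutlin-3a over DMSO, a scale that shrinks the ratios of genes with few reads, and folds are plain ratios of FPKM. Genes entered with a mean of at least 1 FPKM across the groups and nonzero values in each, and a gene was called at 2-fold or more on the log2(FPKM + 1) scale. By this limit 1 subunit, Itga7, was higher and 1, Itgb3, was lower, and 6 lay within it. Over all genes compared, 6.62% were called higher and 6.14% lower, so 1 of 8 in each direction is close to that background. At a 1.5-fold limit 1 subunit was higher and 2 were lower, beside 17.8% and 15.2% of all genes compared. The median log2 ratio was -0.03 for the subunits and 0.07 for all genes compared. These are bulk RNA values, in which fewer cells of a type and less RNA per cell cannot be told apart.

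**Figure D1:**
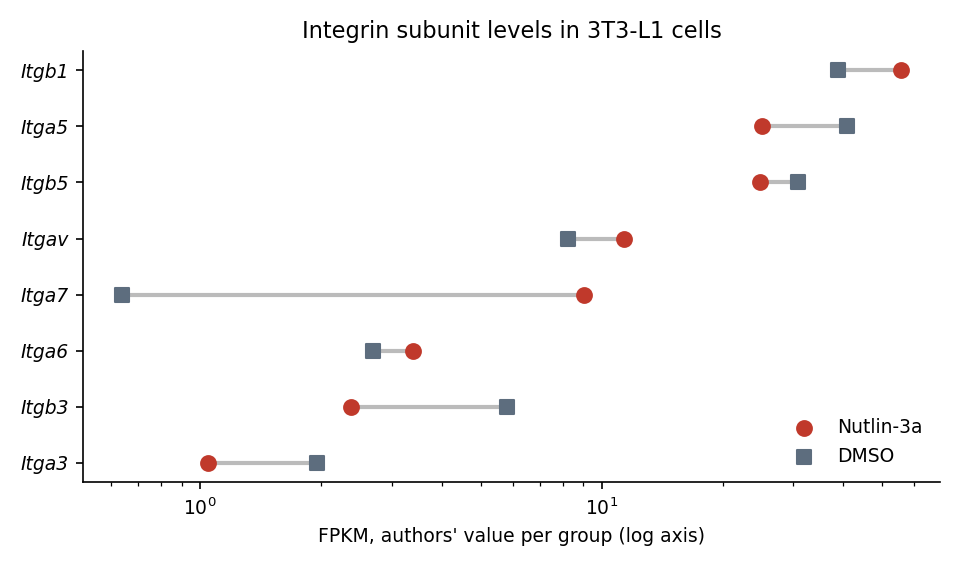
FPKM of each listed integrin subunit in Nutlin-3a (red circles) and DMSO (grey squares) on a log axis, with subunits ordered by their Nutlin-3a level and a line joining the group values. Itga7 has the widest gap, 9.04 against 0.640 FPKM, and Itgb1 is highest in Nutlin-3a.

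In Nutlin-3a the order of levels was Itgb1, Itga5, Itgb5, Itgav, Itga7, Itga6, Itgb3 and Itga3, from high to low. In DMSO it was Itga5, Itgb1, Itgb5, Itgav, Itgb3, Itga6, Itga3 and Itga7. Itga7 held place 5 in Nutlin-3a and the last place in DMSO, and Itgb3 held place 7 in Nutlin-3a and place 5 in DMSO. Close neighbours, such as Itga5 and Itgb5 in Nutlin-3a at 25.1 and 24.7 FPKM, or Itga5 and Itgb1 in DMSO at 40.8 and 38.8 FPKM, cannot be ordered firmly without a spread between libraries.

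Itgb1, the beta 1 chain shared by the largest group of integrins, had 55.6 FPKM with Nutlin-3a against 38.8 FPKM with DMSO. That is 1.43-fold higher, a log2 ratio of 0.51, within the limit and at percentile 78.6 of all genes compared. It ranked 1454 of 16709 symbols in Nutlin-3a and 1977 in DMSO. The gene lies on chromosome 8 from 128685654 to 128733579 (mm10), and the listed model has the same ends as the RefSeq gene.

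Itga5, the alpha chain of the fibronectin receptor, went the other way from its only beta partner. Its level was 25.1 FPKM with Nutlin-3a against 40.8 FPKM with DMSO, 1.62-fold lower, with a log2 ratio of -0.68 at percentile 12.1. The beta 1 chain thus had 2.21 FPKM per FPKM of alpha 5 in Nutlin-3a and 0.950 in DMSO. Fn1, the fibronectin gene and the ligand of this receptor, had 171 against 205 FPKM, a log2 ratio of -0.26. Itga5 lies on chromosome 15 from 103344286 to 103366748 (mm10, as listed).

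Among the laminin-binding alpha chains, Itga7 was the single subunit called higher. Its level was 9.04 FPKM with Nutlin-3a against 0.640 FPKM with DMSO, 14.1-fold higher, with a log2 ratio of 2.61 at percentile 99.7. Alpha 7 is best known as the laminin receptor of skeletal and cardiac muscle fibres, where it pairs with beta 1. Its value rests on 1 listed transcript, on chromosome 10 from 128933813 to 128960988 (mm10). That model runs past the RefSeq gene end of 128958286 and overlaps 3 further RefSeq genes, Gm25494, Gm46186 and Mettl7b. Mettl7b has its own listed value of 0.924 against 1.10 FPKM. The part of these genes in the Itga7 value was not tested.

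Of 5 skeletal muscle markers, 4 had a higher value in Nutlin-3a beside this, and none exceeded 5 FPKM in either group. The muscle regulators Myod1 and Myog had 0.0430 and 0.0742 FPKM with Nutlin-3a and were listed at 0 with DMSO, and the muscle creatine kinase gene Ckm had 0.906 FPKM with Nutlin-3a against a listed 0 with DMSO. Skeletal actin, Acta1, had 1.74 against 0.368 FPKM and was called higher, 4.72-fold, at a log2 ratio of 1.0002 just past the limit. Desmin, Des, had 4.15 against 4.90 FPKM and made up most of the summed level. The 5 markers together had 6.91 FPKM with Nutlin-3a against 5.27 FPKM with DMSO, and their part in the Itga7 value was not tested. Values near 0 were unevenly spread, with 466 symbols at 0 in Nutlin-3a and 2346 in DMSO. Of the 3443 genes with a mean of 1 to 5 FPKM, the class of Itga7, 8.51% were called higher and 4.88% lower.

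The other laminin-binding alpha chains, alpha 6 and alpha 3, were weakly expressed in both groups, though in DMSO both lay above Itga7. Itga6, which also serves as a marker of progenitor cells in several tissues, had 3.39 against 2.69 FPKM, a log2 ratio of 0.25. Its listed model spans 515 kb on chromosome 2, from 71389260 to 71903858 (mm10), over 12 further RefSeq genes including Hat1, Metap1d, Dlx1, Dlx2 and Pdk1, whereas the RefSeq gene itself runs from 71786886 to 71858427. The value of Itga6 is uncertain for that reason. It is also the sum of a transcript at 1.85 against 2.06 FPKM and another at 1.54 against 0.627 FPKM, and the sign of the ratio follows the second.

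Itga3, whose product binds laminins of basement membranes, had the lowest level of the members in Nutlin-3a. Its level was 1.04 FPKM with Nutlin-3a against 1.96 FPKM with DMSO, and its log2 ratio was -0.53. The sum joins transcripts that went opposite ways. The first had 0.592 FPKM with Nutlin-3a against 0.00247 FPKM with DMSO and the last had 0.453 against 1.95 FPKM, while the other two were close to 0 in both groups. At so low a level the division of fragments among transcripts is uncertain, and these transcripts cannot be named: of 11 accessions listed for the members and found in RefSeq, 2 belonged to the gene of their row. Itga3 lies on chromosome 11 from 95044475 to 95076811 (mm10).

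Alpha v lay higher, as did its partner beta 1, while its partners beta 3 and beta 5 lay lower. Itgav had 11.4 against 8.22 FPKM, 1.38-fold higher, with a log2 ratio of 0.42. Itgb5, the beta 5 chain of a vitronectin receptor, had 24.7 against 30.7 FPKM, a log2 ratio of -0.30. Itgb3, the beta 3 chain, which binds alpha v in many cells and alpha IIb in platelets, had 2.38 against 5.81 FPKM, 2.44-fold lower. Its log2 ratio of -1.01, at percentile 6.05, lay just past the limit. It lay inside the limit after upper-quartile scaling (-0.98), a correction for GC content (-0.93) or with a pseudocount of 5 (-0.55).

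Per FPKM of alpha v there were 0.209 FPKM of beta 3 in Nutlin-3a and 0.706 in DMSO, 2.17 and 3.74 of beta 5, and 4.89 and 4.72 of beta 1. The ratio to beta 1 therefore stayed nearly level while those to beta 3 and beta 5 were smaller in Nutlin-3a. Itgav lies on chromosome 2 from 83724397 to 83806917, Itgb3 on chromosome 11 from 104608000 to 104670471 and Itgb5 on chromosome 16 from 33829665 to 33949338 (all mm10). Vtn, the vitronectin gene, was listed at 0 with Nutlin-3a against 0.0350 FPKM with DMSO.

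**Figure D2:**
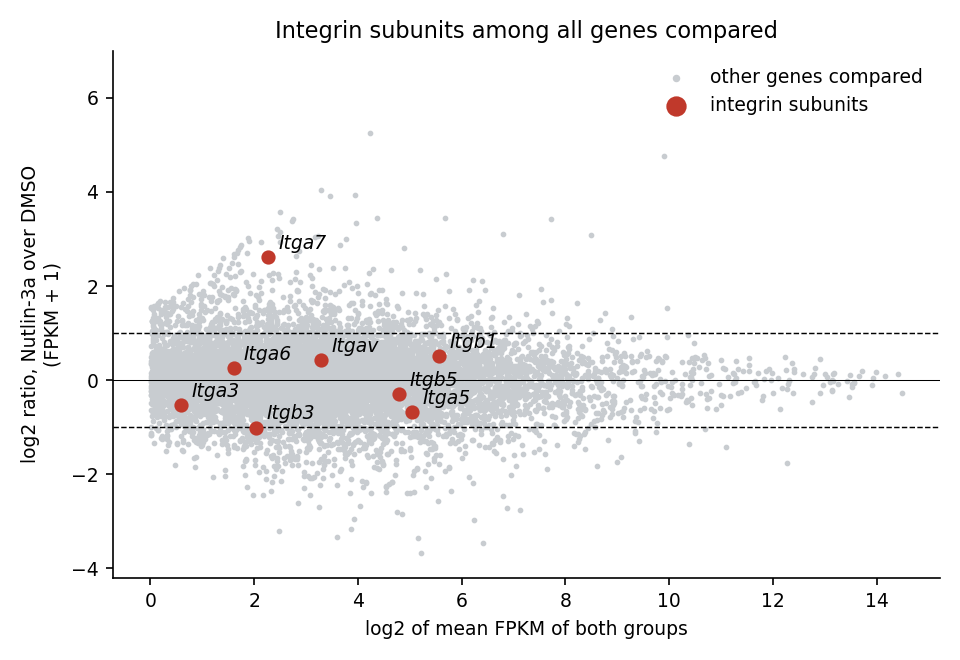
Log2 ratio of Nutlin-3a over DMSO (FPKM + 1) against log2 of the mean FPKM of both groups for all 10331 genes compared (grey), with the 8 integrin subunits in red and dashed lines at 2-fold. Itga7 lies at 2.61 near the upper edge of the cloud, Itgb3 lies on the lower line and the other 6 lie inside the limits.

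The subunits that lay modestly higher shared a low GC content, a feature that played no part in choosing them. The longest annotated transcripts of Itgav, Itgb1 and Itga6 had 43.5%, 44.8% and 48.9% GC. Those of Itgb3, Itgb5, Itga5 and Itga3, which lay lower, had 52.1%, 57.0%, 57.3% and 57.9%, and Itga7 had 57.8%. Ratios leaned the same way over the whole table, with a Spearman rho of -0.22 between GC content and log2 ratio across 9935 genes, which share the same libraries and are not independent. After the trend on GC content was taken out, all 8 subunits kept their sign. The log2 ratio was then 0.40 for Itgb1, 0.29 for Itgav, 0.24 for Itga6, -0.47 for Itga5, -0.31 for Itga3 and -0.10 for Itgb5. For Itga7 it was 2.83.

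The remaining integrin genes added little to the total, apart from Itga2b. Of 19 further symbols, 16 were listed and 3 were compared. Itga2b, the alpha IIb chain of the platelet fibrinogen receptor, had 6.37 against 13.9 FPKM, 2.18-fold lower, with a log2 ratio of -1.02. Like its partner Itgb3 it lay inside the limit after upper-quartile scaling (-0.98), GC correction (-0.79) or with a pseudocount of 5 (-0.73). Of the other platelet markers, Pf4 had 0.994 against 1.23 FPKM, Ppbp 1.27 against 0.503 FPKM and Gp1ba 0.0222 against 0.0847 FPKM, and their part in the Itga2b value was not tested.

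Itgb2, the beta 2 chain of leukocyte integrins, had 2.26 against 1.06 FPKM, and Itgb7, another leukocyte beta chain, 1.13 against 1.14 FPKM. Their log2 ratios of 0.67 and -0.01 lay within the limit. The alpha partners of beta 2 were all below 1 FPKM in both groups, with Itgax, the most abundant of them in Nutlin-3a, at 0.695 against 0.0188 FPKM. Leukocyte and macrophage markers lay higher beside Itgb2, which is itself on that list. The 5 listed markers summed to 9.84 FPKM with Nutlin-3a against 4.52 FPKM with DMSO, and 2 of them were compared, both within the limit. Cd68 had 6.52 against 2.91 FPKM, Csf1r 0.801 against 0.549 FPKM, and Ptprc and Itgam 0.0618 and 0.193 FPKM against a listed 0. Their part in the Itgb2 value was not tested. Subunits that make collagen receptors were low as well, with Itga1 at 0.310 against 0.419 FPKM, Itga10 at 0.452 against 0.112 FPKM and Itga11 at 0.0524 against 0.282 FPKM.

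The make-up of the integrin pool differed more than its size. Summed over 16 listed alpha genes, the total was 58.6 FPKM with Nutlin-3a against 69.2 FPKM with DMSO, and over 7 beta genes 86.9 against 77.7 FPKM. Alpha 5 held 42.9% of the alpha sum in Nutlin-3a and 59.0% in DMSO, and alpha IIb 10.9% and 20.1%. In their place alpha 7 held 15.4% in Nutlin-3a and 0.925% in DMSO, and alpha v 19.4% and 11.9%. On the beta side, beta 1 held 63.9% in Nutlin-3a and 49.9% in DMSO, beta 5 28.4% and 39.6%, and beta 3 2.74% and 7.48%. The alpha and beta shares are of transcripts and say nothing of how many receptors reached the cell surface.

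**Figure D3:**
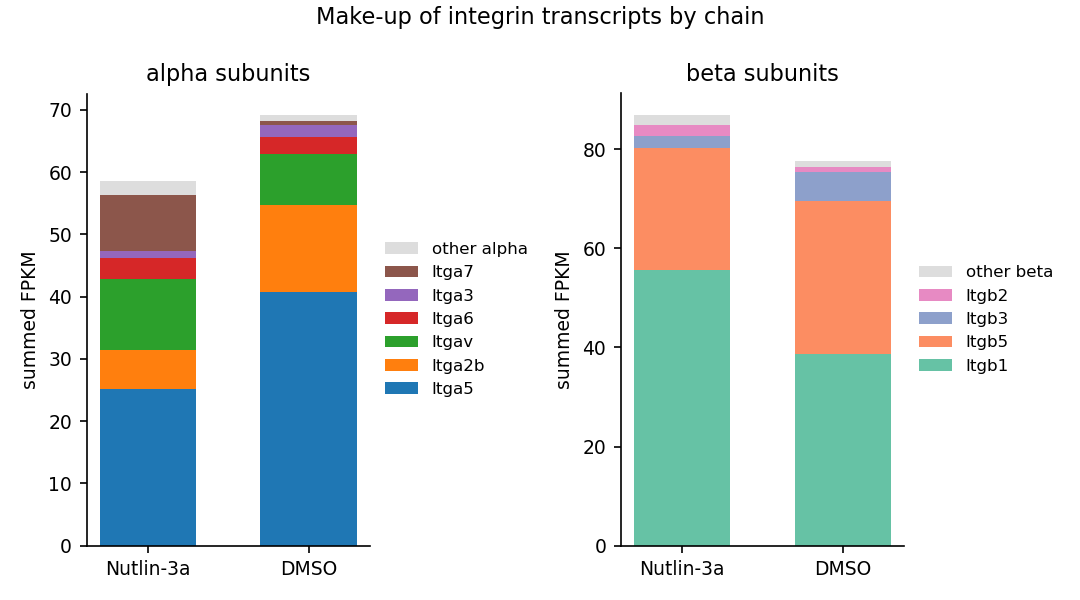
Summed FPKM of alpha (left) and beta (right) integrin genes in Nutlin-3a and DMSO, stacked by subunit. The Itga7 band is visible in Nutlin-3a (15.4% of the alpha sum) and almost absent in DMSO (0.925%), and Itgb1 takes 63.9% of the beta sum in Nutlin-3a and 49.9% in DMSO.

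Among matrix ligands of integrins in general, the collagens stood mostly lower. The collagen receptor chains named above, Itga1, Itga10 and Itga11, are not among the members chosen. Of 10 collagen genes, 5 were called lower and 0 higher, beside 6.14% lower and 6.62% higher of all genes compared. Their median log2 ratio was -1.003, against 0.07 over all genes compared. The largest log2 ratios were those of the fibrillar collagens Col3a1 (-1.68), Col1a2 (-1.63) and Col1a1 (-1.58). The type VI collagen chains Col6a2 (42.4 against 88.9 FPKM) and Col6a3 (18.8 against 41.2 FPKM) completed the count, and both lay inside the limit with a pseudocount of 5 or after GC correction, which left 3 lower. Of 17 compared RGD and matricellular ligands, 4 were lower and 1 higher, beside the same shares of all genes, with a median of -0.26.

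Tgfbi, a matrix protein that integrins bind, was 3.39-fold lower (20.2 against 68.6 FPKM), and periostin, Postn, 2.20-fold lower (60.0 against 132 FPKM). Tgfb1, whose latent form is freed by alpha v integrins, was 2.31-fold lower (5.41 against 12.5 FPKM), and Nov, a CCN family protein, had 0.319 against 2.02 FPKM. Nid1, the basement membrane protein nidogen 1, was the member called higher, 2.11-fold (59.7 against 28.3 FPKM). Spp1, which encodes osteopontin, an RGD ligand of alpha v integrins, was the most abundant ligand at 1614 against 1162 FPKM and lay within the limit.

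Laminin transcripts, the ligands of alpha 3, alpha 6 and alpha 7, held 1 higher gene among 5 compared and 0 lower. The shares over all genes compared were 6.62% and 6.14%, and the laminin median was -0.13. Lamc1, the gamma 1 chain found in most laminins, was 2.40-fold higher (10.4 against 4.31 FPKM). Lamb1 had 34.2 against 37.5 FPKM, Lamb2 13.2 against 23.8 FPKM, Lama4 11.3 against 15.3 FPKM and Lama5 3.19 against 2.98 FPKM, all within the limit.

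Inside the cell, of 15 compared genes that switch integrins on or off, 0 were higher and 0 lower, with a median of 0.06. Over all genes compared the shares were 6.62% and 6.14%, so 0 of 15 in each direction is close to that background. Talin 1, Tln1, which binds beta tails and opens the receptor, had 14.0 against 16.7 FPKM, and kindlin 2, Fermt2, its partner in activation, 10.3 against 12.0 FPKM. Filamin A, Flna, which competes with talin for the tail, had 51.9 against 94.7 FPKM, a log2 ratio of -0.86.

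Of 20 focal adhesion adaptors, 2 were lower and 0 higher, beside 6.14% and 6.62% of all genes compared, with a median of -0.18. Ilk, a pseudokinase that anchors beta 1 tails to actin, had 27.1 against 56.7 FPKM, 2.09-fold lower, and lay just inside the limit under quantile normalization, GC correction or a pseudocount of 5. Tgfb1i1, the paxillin relative Hic-5, had 1.94 against 6.29 FPKM. Paxillin, Pxn, had 23.8 against 19.7 FPKM and vinculin, Vcl, 22.9 against 23.5 FPKM, both within the limit.

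Of 24 focal adhesion signalling genes, 1 was higher and 1 lower, close to the 6.62% and 6.14% of all genes compared. Their median was 0.13. Grb2, the adaptor that links adhesion and growth factor receptors to Ras, was 2.34-fold higher (47.1 against 20.1 FPKM), and the scaffold gene Nedd9 was 3.37-fold lower (0.993 against 3.35 FPKM). Ptk2, which encodes the focal adhesion kinase FAK, had 27.2 FPKM in each group. Bcar1, a FAK-associated scaffold also called p130Cas, had 49.5 against 24.5 FPKM with a log2 ratio of 0.98, just inside the limit.

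Membrane partners and trafficking genes gave 1 higher and 2 lower of 17, beside 6.62% and 6.14% of all genes compared. Their median was -0.02. Rab21, a small GTPase that binds alpha tails and carries integrins through endosomes, was 2.55-fold higher (46.2 against 18.1 FPKM). The tetraspanin gene Cd9 was 2.07-fold lower (102 against 212 FPKM), and Plaur, the urokinase receptor, which associates with integrins in the same membrane, was 2.54-fold lower (4.13 against 10.5 FPKM). The tetraspanin Cd151, a partner of laminin receptors, had 35.4 against 36.0 FPKM. Several of these calls on ligands and partners depended on the pseudocount: with a value of 5 the log2 ratio was 0.96 for Nid1, 0.72 for Lamc1, -0.75 for Tgfb1, -0.40 for Nov, -0.70 for Tgfb1i1, -0.48 for Nedd9 and -0.76 for Plaur, all inside the limit. Nid1 (0.98) was also inside it with the median ratio set to 0, and Tgfb1 (-0.98) after GC correction.

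**Figure D4:**
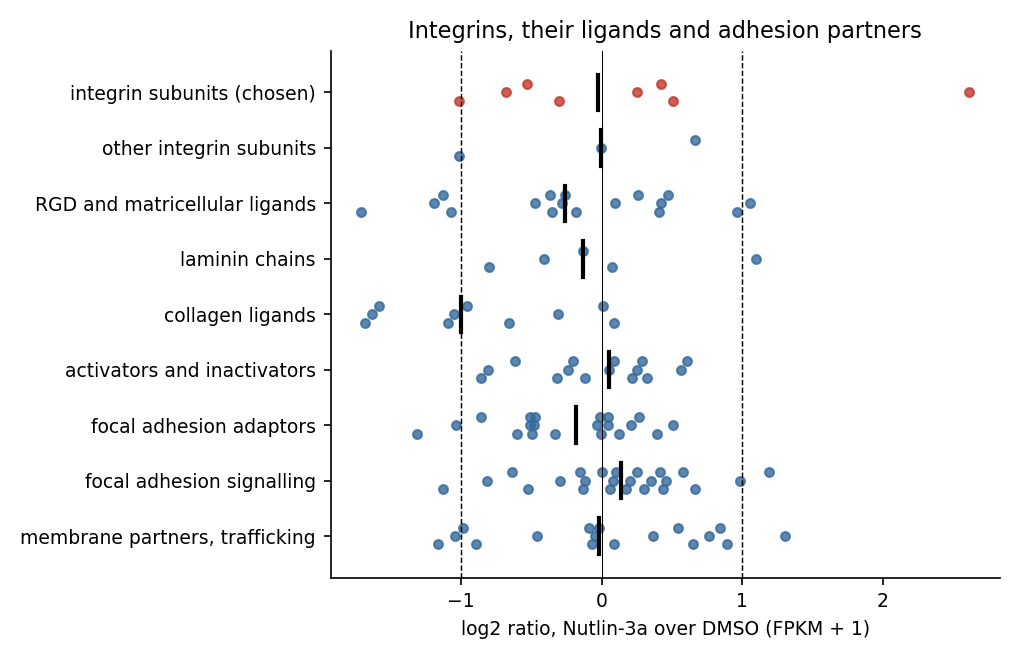
Log2 ratio of Nutlin-3a over DMSO (FPKM + 1) for each compared gene, by list, with a black bar at the list median and dashed lines at 2-fold. The integrin subunits centre at -0.03 with Itga7 far to the right at 2.61, and the collagen ligands centre at -1.003.

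The labelled cell type was checked against its markers. Of 8 fibroblast and preadipocyte markers, 7 were compared. Of these, 4 were called lower and 0 higher, beside 6.14% and 6.62% of all genes compared, with a median log2 ratio of -1.42. The 4 were Vim (1181 against 3169 FPKM), Ly6a (84.3 against 316 FPKM), Pdgfra (9.14 against 30.0 FPKM) and Col1a1 (63.9 against 193 FPKM). Pdgfrb (15.3 against 26.1 FPKM) and Thy1 (47.9 against 88.6 FPKM) lay lower within the limit. Dlk1, a preadipocyte marker, had 623 against 513 FPKM, whereas Cd34 had 0.0187 against 0.186 FPKM. Their sum was 2025 FPKM with Nutlin-3a against 4336 FPKM with DMSO, and its part in the integrin values was not tested. The 3 listed endothelial markers summed to 1.72 FPKM with Nutlin-3a against 0.174 FPKM with DMSO, and Pecam1, at 1.57 against 0.0260 FPKM, made up most of the Nutlin-3a sum. The 5 epithelial markers summed to 1.25 against 0.433 FPKM. Both sums were thus higher in Nutlin-3a at low levels, though the endothelial marker Tek lay lower, at 0.102 against 0.148 FPKM. The part of both lists in the integrin values was not tested. Of 6 adipocyte markers Fabp4 alone exceeded 1 FPKM, at 8.65 against 42.0 FPKM. Adipoq (0.840 against 0.0409 FPKM), Retn (0.874 against 0.0988 FPKM), Plin1, Lep and Cidec went the other way, higher in Nutlin-3a. The part of these markers in the integrin values was not tested.

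**Figure D5:**
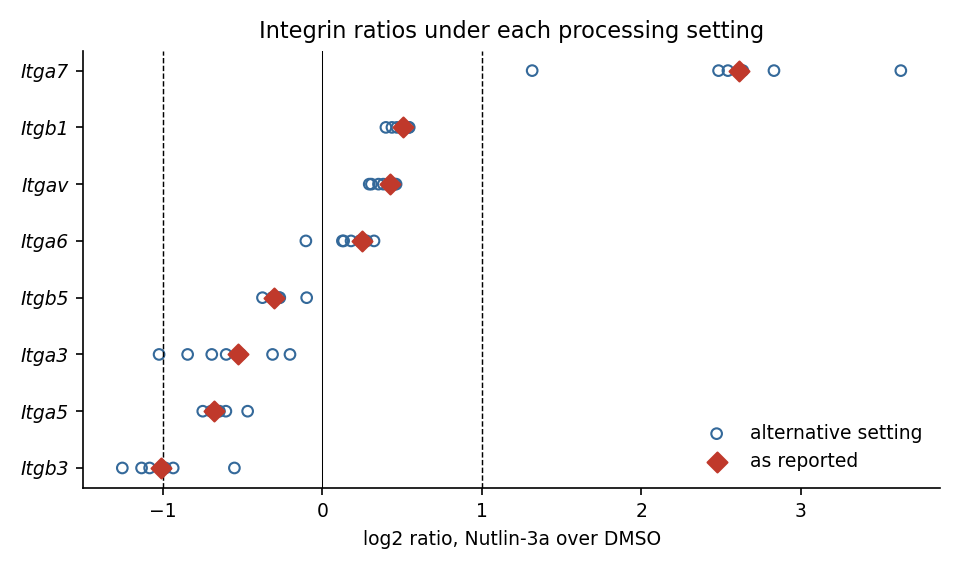
Log2 ratio of each integrin subunit as reported (red diamonds) and under the alternative processing settings (open circles), with dashed lines at 2-fold. Itga7 stays right of the upper line, from 1.32 to 3.63, Itgb3 lies on either side of the lower line, and Itga6 crosses 0 once, to -0.10.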

How the data were processed

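RNA was isolated with TRIzol for Illumina libraries, per the labels' protocols. The submitters' processing notes name TopHat2 2.0.11 and mm10. Neither the quantifier nor how replicates were combined is given in the sources used here. In FPKM, the authors' deposited table gave 1 value per transcript and group (24746 transcripts, 16709 symbols). Its further columns, per the file headers a fold expression, held log2 of the same FPKM (deviation at most 0.0071) and were not used. The column prefix NUT was taken to mean Nutlin-3a, and DSM the only other group, DMSO. Starts are printed counted from 1.

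Transcripts were summed per symbol. Genes with a mean of at least 1 FPKM and a value above 0 in each group were compared on log2(FPKM + 1) and called at 2-fold. This size limit stands in for a test, since limma needs a value per library. The code that makes the calls was checked on simulated data with an assumed noise, which says nothing of the spread between these libraries. The depth of each library is unknown: FPKM times transcript length among low values gave no step shared by more than 31 genes. The longest GENCODE M21 transcript gave GC content for 96.2% of genes compared. The members and gene lists were chosen with earlier results of these data known. Genes are named by a fixed rule: the 9 members, other integrins of at least 1 FPKM, up to 4 per list and direction past the limit, and a few core adhesion genes. Other genes are examples chosen after their values were seen. Alternatives covered pseudocounts, filters, scalings, transcript choice, GC content and the limit (pandas 2.3.3, statsmodels 0.14.6).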

Additional observations from a re-analysis of the deposited data

How the results depend on the processing

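Each of the 10 alternatives that could be run gave integrin ratios, 76 in all, of which 71 stayed on the same side of the limit. Itga7 ranged from 1.32 to 3.63 and passed the limit wherever it was compared. With a mean of at least 5 FPKM required, Itga3, Itga6, Itga7 and Itgb3 were not compared, which left 0 higher and 0 lower of 4 subunits. The count of lower subunits was also 0 with a pseudocount of 5, upper-quartile scaling or GC correction, and it was 2 at a 1.5-fold limit, which added Itga5, or with the transcript of highest mean, which added Itga3 (-1.02). With that transcript Itga6 had -0.10.

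Counts over all genes were 249 higher and 291 lower with a pseudocount of 5, 391 higher with a mean of at least 5 FPKM, and 1839 higher (17.8%) and 1566 lower (15.2%) at 1.5-fold. For further integrins, 1 was higher with a pseudocount of 0.1 and at 1.5-fold, 0 were lower with a pseudocount of 5, upper-quartile scaling or GC correction, and the median was -1.02 for the 1 gene with a mean of at least 5 FPKM. RGD and matricellular ligands had 0 higher and 2 lower with a pseudocount of 5, 0 higher with the median ratio set to 0, 2 lower with GC correction, and 2 higher at 1.5-fold. Laminins had 0 higher with a pseudocount of 5 and 1 lower at 1.5-fold, and collagens 3 lower with a pseudocount of 5 or GC correction. Activators had 1 higher and 3 lower at 1.5-fold. Adaptors had 0 lower with a pseudocount of 5, 1 lower with a mean of at least 5 FPKM or GC correction, and 4 lower at 1.5-fold. Signalling genes had 2 higher with a pseudocount of 0.1, upper-quartile scaling, quantile normalization, the transcript of highest mean or GC correction, 0 lower with a pseudocount of 5 or a mean of at least 5 FPKM, and 3 in each direction at 1.5-fold. Partners had 1 lower with a pseudocount of 5, 2 higher with GC correction, and 5 higher and 4 lower at 1.5-fold. The cause was not tested, except that a stricter filter compares fewer genes and a lower limit calls more. A count over all genes or a list is given here only where it differed from the reported count by a factor above 1.5, or where just 1 of them was 0. Smaller shifts of counts are not listed. A list median was taken as moved when it shifted by more than 0.39, which is the quartile distance of all ratios divided by 2.

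No paired analysis was possible because the table holds 1 value per group and none per library. Leaving out a replicate was not possible for the same reason. Values near 0, such as those of Itga3 and that of Itga7 in DMSO (0.640 FPKM), are limited by an unknown depth.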

Other observations

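Adhesion receptors outside the integrin family, a list chosen after the table had been seen, stood mostly at similar levels in both groups. Of 17 compared, 0 were called higher and 1 lower, beside 6.62% and 6.14% of all genes compared, with a median log2 ratio of -0.11. The hyaluronan receptor gene Cd44 had 31.6 against 34.3 FPKM, and the collagen-binding receptor kinases Ddr1 and Ddr2 had 10.3 against 12.4 FPKM and 11.1 against 12.6 FPKM. Pvrl2, which encodes the cell-cell adhesion protein nectin 2, was 2.89-fold lower (14.6 against 42.3 FPKM). The glypican genes Gpc1 (52.6 against 26.3 FPKM) and Gpc4 (103.6 against 59.1 FPKM) lay higher within the limit, with log2 ratios of 0.97 and 0.80. Sdc3, which encodes the heparan sulfate proteoglycan syndecan 3, lay lower within it (12.5 against 24.0 FPKM, log2 ratio -0.89). Of the 17 receptors, 12 had a ratio below 0, while the median over all genes compared was 0.07. Among cadherins, Cdh2 had 14.3 against 9.61 FPKM and Cdh11 had 21.1 against 21.5 FPKM.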
